A study of Mus musculus with 2 samples.

Results

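Among the sorted lung cells of saline-treated mice, 297 barcodes carried the transcript profile of alveolar type 2 cells, which make and secrete pulmonary surfactant. They were 5.47% [4.88 to 6.11] of the 5432 saline barcodes that passed the quality limits of 500 genes and 10% mitochondrial transcripts, of 5455 in all. Brackets give exact 95% intervals, which cover counting error only. A barcode was taken when Sftpc, the gene of surfactant protein C, reached 300 of every 10000 of its transcript molecules (UMIs) and when Cxcl15, Slc34a2 and Lamp3 together had at least 5 UMIs. It also had to hold no UMI of Ptprc, Pdgfra or Cdh5. They encode the leukocyte antigen CD45, the platelet-derived growth factor receptor alpha of fibroblasts, and vascular endothelial cadherin. The cells were thus chosen by the measured levels of these 7 genes, which are given as description.

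The mice were 8 to 10 weeks old and of genotype Lepr-Cre;Rosa26-tdtomato, in which a recombinase expressed from the leptin receptor gene permanently switches on a red fluorescent reporter. Lungs of saline-treated and bleomycin-treated mice were digested, live tdTomato-positive cells were sorted, and each group gave 1 droplet library. Lineages marked this way include cells whose forebears, not they themselves, used the leptin receptor gene. The saline library held 37570380 UMIs (median 6353 per barcode) and the bleomycin library 61537182 in 4473 barcodes (median 12389). The 2 libraries shared 33 barcode sequences, 2 of them among the 297 cells. The labels used here do not state how many mice were pooled, the dose or the day, and with 1 library per group no difference was tested.

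Alveolar type 2 cells line the air sacs together with flat alveolar type 1 cells, into which they can develop. They assemble surfactant, a mixture of phospholipids and the proteins SP-A, SP-B, SP-C and SP-D, in storage organelles called lamellar bodies. They also secrete lysozyme and other defence proteins into the alveolar lining fluid.

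Sftpc, the gene of the limit, was as follows on either side of it. The 3 lowest accepted barcodes had 478, 537 and 597 Sftpc UMIs per 10000, the median was 2140 and the highest 3196. Of the barcodes that failed the Sftpc limit, the 3 highest had 231, 228 and 195 per 10000, the median was 5.40 and 25 reached 30. Of 341 barcodes past the Sftpc limit, 340 also passed the limit on Cxcl15, Slc34a2 and Lamp3, the failing one with 3 UMIs. The lowest barcode past the Sftpc limit had 351 per 10000, and of 5 between 300 and 500 per 10000, 1 was kept and 4 were not. The exclusion genes then removed 43, of which 32 had a Pdgfra UMI, 8 a Ptprc UMI and 5 a Cdh5 UMI, with 2 of the 43 positive for a pair of these genes. The cells kept had a median of 5983 UMIs (2312 to 15292), 1635 genes and 4.08% mitochondrial UMIs.

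**Figure D1:**
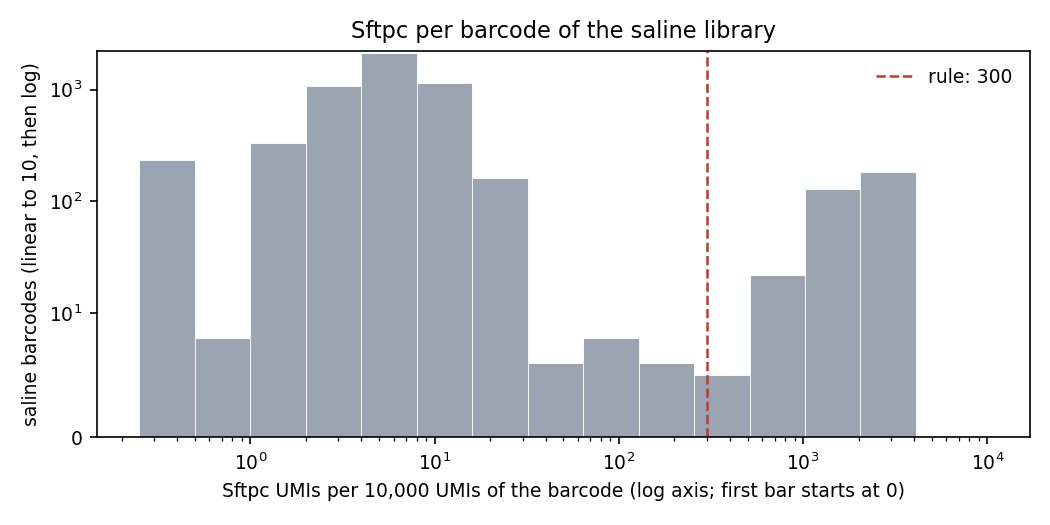
Sftpc UMIs per 10000 UMIs of each saline barcode that passed the quality limits (log axis, first bar from 0) against the number of barcodes, with the limit of 300 dashed. The bulk of barcodes lies around the median of 5.40 and the cells described here lie between 478 and 3196.

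Other lineages of the same library served as the background. They were gated on their own marker UMIs and gave 2583 fibroblasts, 384 alveolar macrophages, 69 endothelial cells, 105 ciliated cells and 21 club cells, the secretory cells of the airway. Levels are UMIs per 1000000 UMIs of a class (UPM), summed over its cells. A gene counts as higher or lower at a ratio of at least 2, with at least 50 UMIs and 20 UPM in the higher class. A class share is pulled down by its own abundant transcripts: Sftpc was 20.6% of the UMIs of alveolar type 2 cells and Scgb1a1, the club cell secretoglobin, 49.3% of those of club cells. Other scalings were therefore run, 1 leaving the 4 surfactant protein genes out of the total and 1 centring the log2 ratios on their median. They changed the gene counts in 58 of 110 pairs of a list and a lineage, in 30 of them by 1 gene, and changes of 2 or more are given beside the list counts printed here.

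Under the main scaling, 10.1% of 5842 measured genes were higher in alveolar type 2 cells than in fibroblasts and 33.8% lower. Against macrophages 16.5% were higher and 34.3% lower, against endothelial cells 17.2% and 21.1%, against ciliated cells 12.3% and 32.3%, and against club cells 38.7% and 1.9%. The minimum of 50 UMIs is 27.9 UPM in alveolar type 2 cells but 138 in the 21 club cells, 109 in endothelial and 80.3 in ciliated cells. Genes high in these small classes thus had a higher bar to pass, which raises the share counted as higher in alveolar type 2 cells. Of the genes counted as apart from fibroblasts, 23.0% were higher, against 35.5% without the surfactant genes in the total and 41.7% after centring. The same shares were 32.5%, 45.6% and 49.7% against macrophages, 44.9%, 57.9% and 57.3% against endothelial cells, and 27.7%, 42.5% and 48.5% against ciliated cells. Against club cells they were 95.3%, 97.5% and 81.3%. The median gene had a log2 ratio of -0.60 against fibroblasts, -0.52 against macrophages, -0.40 against endothelial cells, -0.55 against ciliated cells and 0.81 against club cells.

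Surfactant protein genes were among the most abundant transcripts, ranking 1 (Sftpc), 3 (Sftpa1) and 5 (Sftpb) in level, with Lyz2 at 2. Sftpc stood at 205522 UPM [204858 to 206187], with 219 to 2951 UMIs in a cell (median 1292). Sftpa1, which encodes a collectin that binds surfactant lipid and microbes, stood at 30755 UPM, with 25 to 741 UMIs in a cell (median 167). Sftpb, whose protein is needed to spread the lipid film, stood at 12813 UPM, with 9 to 243 UMIs in a cell (median 75). Sftpd, the gene of the other surfactant collectin, stood at 4790 UPM, with 1 to 202 UMIs in a cell (median 25). All 297 cells held UMIs of each of the 4. Together they made 25.4% of all UMIs, and between 720 and 3552 of every 10000 in single cells. The marker genes Sftpa1, Sftpb and Slc34a2 were found in all 297 cells and Lamp3 in 286. The rule used Sftpc, Slc34a2 and Lamp3, so the choice of cells favoured finding them.

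The 3 surfactant genes that the rule did not use were next highest in club cells. Sftpa1 stood at 7501 UPM in club cells against 85.9 to 145 in the other 4 lineages, Sftpb at 1515 against 17.4 to 51.2, and Sftpd at 1150 against 6.52 to 30.5. Sftpc, which the gates limited, stood at 890 UPM in club cells, within the 546 to 1012 of the other 4. Per cell, the deeper club cells had 15.3 Sftpc UMIs (median 12, 103 in 1 cell) against 3.84 to 4.59. Alveolar type 2 cells exceeded club cells 4.10-fold [3.94 to 4.26] in Sftpa1, 8.46-fold [7.77 to 9.22] in Sftpb and 4.16-fold [3.77 to 4.61] in Sftpd.

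The promoters of Sftpa1 and Sftpb are shown because both genes were high in alveolar type 2 cells and next highest in club cells, and that of Lyz1 because it was among the most variable genes between the cells. They are the 250 bases before the annotated start, 5′ to 3′ on the gene's strand, from RefSeq on GRCm38.p6. Capitals mark CTCAAG, which holds the core bound by the lung homeodomain factor NKX2-1, or TTGCNNAA, a C/EBP half-site pair, on either strand.
Sftpa1, plus strand of chr14:41131538-41131787: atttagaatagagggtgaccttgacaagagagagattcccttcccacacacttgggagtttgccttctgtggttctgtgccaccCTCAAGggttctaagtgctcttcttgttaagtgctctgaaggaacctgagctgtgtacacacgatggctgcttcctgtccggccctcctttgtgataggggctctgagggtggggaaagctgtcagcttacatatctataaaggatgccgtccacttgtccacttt
Sftpb, plus strand of chr6:72304360-72304609: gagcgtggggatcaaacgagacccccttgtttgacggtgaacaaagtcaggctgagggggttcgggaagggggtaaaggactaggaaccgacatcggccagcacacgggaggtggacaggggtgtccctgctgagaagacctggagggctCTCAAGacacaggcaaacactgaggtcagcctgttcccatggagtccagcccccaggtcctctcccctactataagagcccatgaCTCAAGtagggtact
Lyz1, minus strand of chr10:117292869-117293118: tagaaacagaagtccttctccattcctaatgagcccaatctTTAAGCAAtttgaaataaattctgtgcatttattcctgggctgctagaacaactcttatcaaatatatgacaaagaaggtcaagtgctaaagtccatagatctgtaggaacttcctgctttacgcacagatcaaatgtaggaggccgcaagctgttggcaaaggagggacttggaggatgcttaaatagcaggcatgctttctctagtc
CTCAAG was present once in the Sftpa1 window and at 2 places in that of Sftpb, and in 13.3% of the 32851 promoters of the table cut to the same length. TTGCNNAA was present in the Lyz1 window and in 9.56% of all promoters. The forkhead motif TGTTTAC was in none of the 3 windows and in 3.17% of all. Of 22 leading genes of the profile 15 had an entry, of which 2 held CTCAAG, 4 held TTGCNNAA (Slc34a2, Lyz1, S100g and Mlc1) and 3 held TGTTTAC (Lamp3, S100g and Etv5). No motif overlapped another, and a match is only a run of letters.

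**Figure D2:**
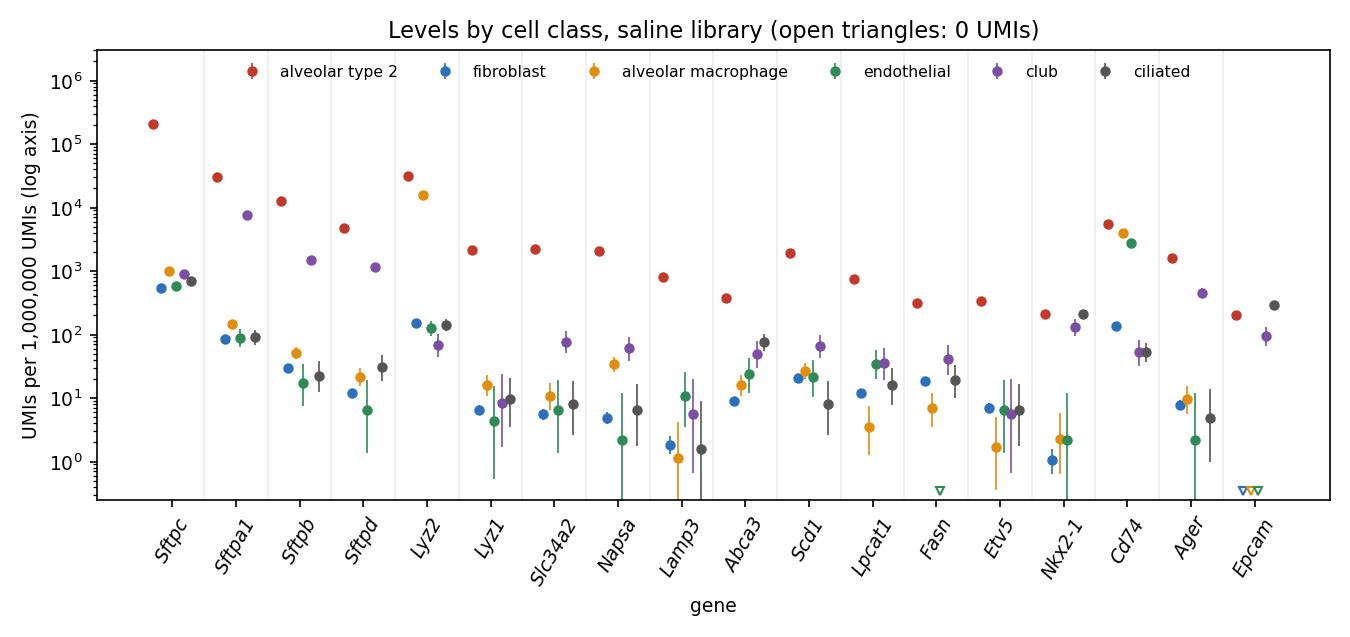
Levels of 18 genes in UMIs per 1000000 UMIs (log axis) in alveolar type 2 cells and 5 other lineages of the saline library, with exact 95% intervals and open triangles for 0 UMIs. Surfactant genes other than Sftpc are next highest in club cells, Lyz2 and Cd74 in macrophages, and Nkx2-1 and Epcam are shared with both airway lineages.

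Genes of lamellar bodies and surfactant processing followed. Of the 14 in that list, 9 of the 14 measured were higher than in fibroblasts and 3 lower, 9 and 2 of 13 against macrophages, 9 and 3 of 12 against endothelial cells, 10 and 0 of 12 against club cells, and 10 and 2 of 12 against ciliated cells. The median log2 ratio against fibroblasts was 5.40. These counts include Slc34a2 and Lamp3, which the rule used, so the choice of cells favoured them as higher. Napsa, the protease napsin A that trims the SP-B precursor, stood at 2107 UPM, and the next highest lineage was club cells at 60.8. Slc34a2, a phosphate transporter, stood at 2257 UPM, Lamp3, a lamellar body membrane protein, at 799 and Abca3, which pumps phospholipid into lamellar bodies, at 372. The members that were lower are general lysosomal genes. Psap, the precursor of the saposins, stood at 82.7 UPM against 4042 in macrophages and 581 in fibroblasts. Ctsd, the protease cathepsin D, stood at 121 UPM against 2999 and 280. Another cathepsin, Ctsh, which also acts on the SP-B precursor, stood at 1302 UPM, above the 318 of macrophages and the 342 of ciliated cells.

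Most measured genes of fatty acid synthesis and desaturation were higher than in each lineage. Of the 20 genes, 12 of 14 measured were higher than in fibroblasts and 1 lower, 11 and 0 of 14 against macrophages, 12 and 1 of 14 against endothelial cells, 11 and 0 of 14 against club cells and 11 and 2 of 15 against ciliated cells (13 and 1 under both other scalings). Medians lay between 2.22 and 2.91 on the log2 scale, against the medians of all genes given above. Scd1, the desaturase that makes oleate and palmitoleate, stood at 1935 UPM, 92.4-fold [83.5 to 102] above fibroblasts and 29.2-fold [19.6 to 45.6] above club cells, the nearest lineage. Fasn, the fatty acid synthase, stood at 313 UPM against at most 41.5 elsewhere, Elovl1, an elongase of long chains, at 681 against at most 104, and Acot7, an acyl-CoA thioesterase, at 447 against at most 41.5. Elovl6, which elongates palmitate, had 1 UMI in all 297 cells. The counts include Acot7 and Hadh, which are fatty acid enzymes but not enzymes of synthesis.

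Of 19 phospholipid synthesis genes, 6 of 16 measured were higher and 3 lower than in fibroblasts, and 7 and 1 of 15 against macrophages. Against endothelial, club and ciliated cells the counts were 6 and 0 of 11, 7 and 0 of 11, and 3 and 2 of 12. Centring changed the fibroblast count to 9 higher and 2 lower and the macrophage count to 10 and 1, and either scaling gave 8 higher against endothelial cells. Lpcat1, which remodels phosphatidylcholine into the disaturated form of surfactant, stood at 737 UPM against at most 35.9 elsewhere. Pla2g1b, a secreted phospholipase and so not a synthesis enzyme, though counted in the list, stood at 623 UPM against at most 82.9. Chka, a choline kinase, was at 247 UPM, with 241 in ciliated cells. The rate-limiting Pcyt1a was at 33.0 UPM, within the 16.6 to 53.0 of the other lineages.

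Of 16 cholesterol genes 6 of 12 measured were higher than in fibroblasts and none lower, a count that became 10 without the surfactant genes in the total and 12 after centring. Against macrophages 8 of 13 were higher and 1 lower (11 higher under both other scalings), against endothelial cells 8 and 0 of 12 (10 higher), against club cells 11 and 0 of 12 (7 higher after centring) and against ciliated cells 6 and 1 of 12. Fdps, the farnesyl diphosphate synthase, was the highest member at 211 UPM, 3.46-fold [3.08 to 3.89] above fibroblasts.

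**Figure D3:**
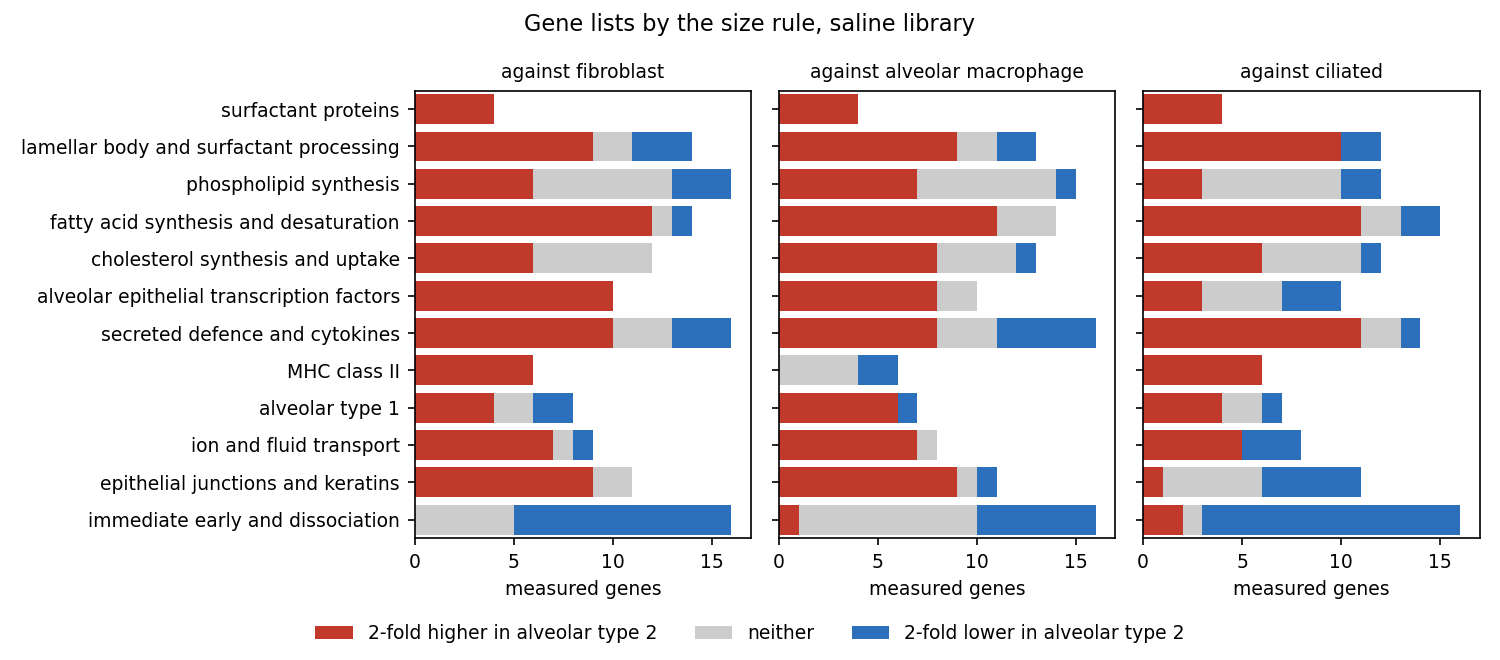
Measured genes of 12 lists that were at least 2-fold higher, at least 2-fold lower or neither in alveolar type 2 cells, against fibroblasts, alveolar macrophages and ciliated cells of the saline library. Fatty acid synthesis genes are mostly higher in the 3 panels, and MHC class II genes are higher against fibroblasts and ciliated cells but not against macrophages. Some lists include the rule genes Sftpc, Cxcl15, Slc34a2 and Lamp3.

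The 15 genes with the largest ratio over their nearest lineage, after adding 1 UPM, included several outside the surfactant lists. Where a lineage had 0 UMIs, a gene's place among them depended on that addition. Lyz1, a lysozyme gene, led them at 2150 UPM against at most 16.1. Hc, the gene of complement C5, stood at 560 UPM against at most 4.82, with UMIs in 227 of the 297 cells. S100g, a calcium-binding protein known from the intestine, stood at 1928 UPM against at most 44.2, in 288 cells. Cox6a2, the muscle form of a cytochrome c oxidase subunit, stood at 314 UPM against at most 2.77, in 208 cells. Lrp2, the endocytic receptor megalin, stood at 56.4 UPM, with 3 UMIs in fibroblasts and 0 in the other 4 lineages, and it was at least 6.80-fold higher than in club cells and 32.7-fold higher than in macrophages, taking 3 counts as the floor of a class. The others were Egfl6, Bex4, Etv5, Mlc1, Cdh16, Napsa, Scd1, Rbpjl, Sgpp2 and Nrn1, between 39.1 and 2107 UPM. Below the size rule, Cftr, the chloride channel gene, had 36 UMIs in 31 cells and Csf2, the gene of the cytokine GM-CSF on which alveolar macrophages depend, 31 UMIs in 27 cells. Both had 1 UMI in the 2583 fibroblasts and 0 in the other 4 lineages.

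Transcription factors separated these cells from fibroblasts but less from airway epithelium. Of 14 in the list, 10 of 10 measured were higher than in fibroblasts and 8 of 10 than in macrophages or endothelial cells, against 5 of 10 for club cells and, for ciliated cells, 3 higher and 3 lower. The count for club cells was 2 after centring, and only Elf3 stayed lower than in ciliated cells under either other scaling. Nkx2-1 stood at 209 UPM in alveolar type 2 cells, 130 in club cells and 209 in ciliated cells. Etv5, which acts downstream of FGF receptors, stood at 332 UPM against at most 7.03. Tfcp2l1 stood at 50.8 UPM against at most 13.8 and Cebpa, a regulator of surfactant genes, at 296 UPM against 245 in macrophages. Of 14 growth factor receptors and pathway genes only Fgfr2 and Met had 50 UMIs in these cells, at 138 and 53.6 UPM, and both were higher than in each of the 5 lineages, though not past 2-fold against club cells after centring. Of the 9 members measured against fibroblasts 6 were lower, 3 after centring, and of the 4 against ciliated cells 2 were lower.

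Defence genes were abundant but shared. Lyz2, the lysozyme gene of macrophages, stood at 30981 UPM against 15770 in macrophages, a ratio of 1.96 [1.94 to 1.99] that was just under the 2-fold limit and passed it under both other scalings. Cxcl15, a chemokine of lung epithelium, stood at 6283 UPM and Chil1, a chitinase-like protein, at 2010 UPM, with club cells next at 1167 and 818. Il33, an alarm cytokine, stood at 186 UPM against at most 17.1. Lcn2, a siderophore-binding protein, stood at 508 UPM against 207 in fibroblasts. Of the 19 genes in the list, 10 of 16 measured were higher than in fibroblasts and 3 lower, with 8 and 5 of 16 against macrophages, 10 and 0 of 14 against endothelial cells, 8 and 5 of 15 against club cells and 11 and 1 of 14 against ciliated cells. Under both other scalings 12 were higher than in fibroblasts, with 2 lower, and 12 than in endothelial cells. The counts include Cxcl15, which the rule used, and Scgb1a1, by which club cells were gated, so their places follow in part from the choice of cells.

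MHC class II genes, which present antigen to T cells, were mostly within 2-fold of macrophages. Cd74, the invariant chain, stood at 5530 UPM against 4017 in macrophages and 2775 in endothelial cells, and it was found in all 297 cells, with 1 to 139 UMIs (median 28). H2-Aa stood at 1199 UPM against 1081 and 580. All 6 measured genes of the list of 8 were higher than in fibroblasts, club and ciliated cells, where Cd74 was 136, 52.5 and 53.0 UPM. Against macrophages none was higher and 2 were lower, H2-DMa and H2-DMb1, which load peptides, and under both other scalings 1. Against endothelial cells 1 was higher, H2-Aa, and 2 under both other scalings, Cd74 being the other. All 15 genes of the macrophage list had UMIs in these cells, from 1 for Marco to 148 for Chil3 and 409 in all. The list summed to 0 to 96 UMIs per alveolar type 2 cell against 36 to 1234 per macrophage, and to 228 UPM against 259 in fibroblasts. Its part in the MHC class II values was not tested.

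Some genes known as alveolar type 1 markers were plentiful and others close to absent. Ager, the receptor for advanced glycation end products, stood at 1628 UPM in 292 cells, 3.57-fold [3.05 to 4.20] above club cells, the next lineage. Aqp5, a water channel, stood at 592 UPM and Cldn18, a tight junction protein, at 559. Rtkn2 and Igfbp2 had no UMI, which allows at most 3 counts over the class, Pdpn had 4 and Hopx 10. Of the 14 genes 4 of 8 measured were higher and 2 lower than in fibroblasts, 6 and 1 of 7 against macrophages, 5 and 3 of 8 against endothelial cells, 3 and 0 of 6 against club cells and 4 and 1 of 7 against ciliated cells.

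Epithelial structure genes stood with the airway lineages. Of 14 junction and keratin genes, 9 of 11 measured were higher than in fibroblasts, macrophages or endothelial cells, with 0, 1 and 2 lower. Against club cells 2 were higher and 1 lower, which centring turned to 1 and 4, and against ciliated cells 1 was higher and 5 lower, 3 of them after centring. Epcam, an adhesion molecule of epithelia, stood at 207 UPM, with 94.0 in club and 291 in ciliated cells, and at 0 in the 3 lineages whose gates required that. Krt8 and Krt18, which rise in alveolar cells in transition, stood at 345 and 355 UPM, below the 1288 and 1040 of ciliated cells. Cldn4, another gene of that transition, had 2 UMIs. Of the 15 transition genes 8 of 10 measured were higher than in fibroblasts and 1 lower, 6 and 5 of 11 against macrophages, 7 and 3 of 10 against endothelial cells, 2 and 1 of 9 against club cells (1 and 3 after centring), and 0 and 4 of 9 against ciliated cells. Among 13 ion transport genes 7 of 9 measured were higher than in fibroblasts and 1 lower, 7 and 0 of 8 against macrophages or endothelial cells, 3 and 0 of 8 against club cells (2 higher after centring, 5 without the surfactant genes) and 5 and 3 of 8 against ciliated cells (5 and 1 under both other scalings). The ion transport counts include the rule gene Slc34a2. Slc26a9 and Slc12a2, both chloride transporters, were higher than in each lineage at 62.0 and 162 UPM, though Slc12a2 was not past 2-fold against club cells after centring.

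Immediate early genes, which respond within minutes to tissue digestion, were in sum lower than in the other lineages under the main scaling. Together the 16 genes made 8314 UPM, against 20728 in fibroblasts, 12049 in macrophages, 19293 in endothelial cells, 9877 in club cells and 22021 in ciliated cells. None was higher than in fibroblasts and 11 were lower, 8 of them after centring or without the surfactant genes. Against macrophages 1 was higher and 6 lower, which centring turned to 5 and 5 and leaving out the surfactant genes to 4 and 5. Against endothelial cells 14 were lower and none higher, 5 of them after centring, against ciliated cells 2 were higher and 13 lower (8 lower after centring), and against club cells 1 and 1, with 10 lower after centring. Of all measured genes, 33.8% were lower than in fibroblasts, 34.3% than in macrophages and 21.1% than in endothelial cells. The share was 32.3% for ciliated and 1.9% for club cells. The macrophage count was thus near the share of all genes, with a list median of -0.46 against -0.52. Fos stood at 784 UPM against 3567 in fibroblasts. The mitochondrial share of 4.08% lay above the medians of 1.96% to 3.38% in the other lineages. Its part in these values was not tested.

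Lysozyme varied more from cell to cell than surfactant protein A did. At a depth thinned to 2000 UMIs in each cell, the quartiles were 352 and 478 for Sftpc UMIs and 46 and 74 for Sftpa1 UMIs. Lyz2 had quartiles of 32 and 85 and a median of 59. It ranged from 0 to 162, with 4 cells at 0, and Sftpa1 from 7 to 124. The ratio of variance to mean was 47.3 for Lyz1, 19.4 for Lyz2 and 7.86 for Sftpa1. For Sftpc it was 24.1, above that of Lyz2. Lyz1 was at 0 in 247 cells, at 1 to 4 in 22, at 5 to 9 in none and at 10 to 126 in 28, which is 9.43% [6.36 to 13.3] of the cells and held 97.0% of its thinned UMIs. The empty range belongs to this 1 draw: before thinning, 2 cells had 40.4 and 43.6 Lyz1 UMIs per 10000, and the next below had 22.2. In the 28 Lyz1 cells the median Sftpc count was 404.5 against 424 in the 247 cells at 0, Sftpa1 68 against 60, Cxcl15 13 against 12 and MHC class II 17 against 17. Lyz2 had a median of 35 (quartiles 25.8 and 59) against 61 (34.5 and 85), and the ranges overlapped. The groups were made from Lyz1, so these values are a description of these cells.

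Lyz1 and Lyz2 are neighbouring near-identical copies on chromosome 10, at 117287795-117292868 and 117277541-117282272, and reads could be split between them. In macrophages, where Lyz2 is high, the Lyz1 count was 0.102% of the Lyz2 count. The Spearman correlation of Lyz1 with Lyz2 over the 297 thinned cells of this 1 library was -0.08.

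**Figure D4:**
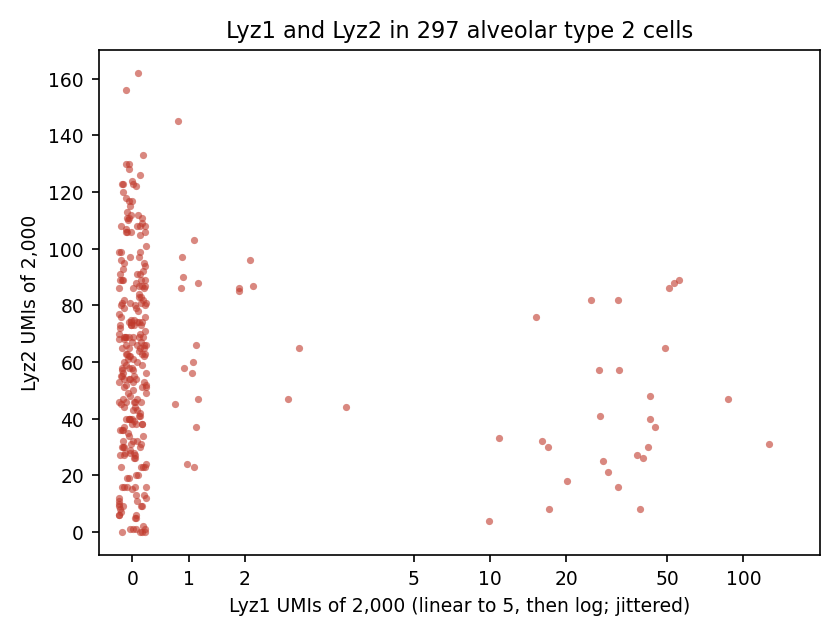
Lyz1 (linear to 5, then log) against Lyz2 UMIs in each of the 297 alveolar type 2 cells of the saline library, thinned to 2000 UMIs. The 28 cells with 10 or more Lyz1 UMIs lie to the right, and 22 cells lie at 1 to 4.

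Other variable transcripts were either widespread or from few cells. The ratio of variance to mean at 2000 UMIs was 21.3 for Malat1, a nuclear noncoding RNA with UMIs in all cells (10 to 240), and 11.7 for Scgb1a1, absent from 41 cells and at most 72. Retnla, a secreted resistin-like molecule abundant in club cells, had 92.7% of its 966 UMIs in 1 cell. Of the 15 cell cycle genes only Pcna and Ube2c had 50 UMIs, and of these only Ube2c was higher than in each lineage. In all the list had 499 UMIs, of which 74.9% lay in 5 cells with at least 10 each, 1.68% [0.549 to 3.88] of the cells. These 5 held 25 of the 37 UMIs of Mki67, the proliferation antigen, and 104 of the 106 of Ube2c. Their median Sftpc was 1344 per 10000 and the lowest 537, against the median of 2140.

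Traces of fibroblast RNA bear on how the sort is read. A list of 20 matrix and mesenchymal genes, led in fibroblasts by Mgp, Bgn and Inmt, had 366 UMIs per fibroblast and 9.82 [9.47 to 10.2] per alveolar type 2 cell (median 9, range 1 to 72). On the UPM scale this was 3.46% [3.34 to 3.59] of the fibroblast level. Macrophages had 14.1 UMIs per cell (median 13, 6.62% of the fibroblast level in UPM), ciliated cells 14.0 (median 10, 5.01%) and the deeper club cells 27.2 (median 27, 3.36%). Endothelial cells had 45.6 (median 11, 14.5%), with up to 627 in a cell, and 1 ciliated cell had 293, the next having 29. Medians in alveolar type 2, endothelial and ciliated cells thus lay close together, while the means differed more. No alveolar type 2 cell reached the median fibroblast count of 326, but the rule had already removed barcodes with a Pdgfra UMI. Single fibroblasts had 35 to 2412 list UMIs, a range that holds the 2 highest alveolar type 2 cells, at 72 and 50. Before exclusion, the 340 barcodes had 26.8 list UMIs each (median 10, up to 1224), or 8.81% of the fibroblast level in UPM. Among the cells kept, the 2 with the most, 72 and 50, were both among the top doublet scores, and the next had 25. Leaving out the top cell kept gave 3.39% in place of 3.46%.

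The list genes differed in their proportion to fibroblasts. Of the 17 list genes with at least 20 UMIs in these cells, the level per cell was 1.31% to 13.9% of that per fibroblast, with a median of 2.56%, and in ciliated cells the median was 3.43%. Mgp stood at 3.01%, Bgn at 2.07% and Col1a1 at 1.31%. Col6a1, a chain of collagen VI, stood at 8.57%, 2.25-fold [1.38 to 3.87] the level per ciliated cell, and it was the one gene whose interval lay above 1 in that ratio, while 10 lay below. The ciliated levels include the cell with 293 of the 1470 list UMIs, and these intervals do not cover spread between cells. Serpinf1, an antiangiogenic serpin, stood at 13.9% on 28 UMIs, and in ciliated cells at 12.7%. Lum and Plac9a had no UMI.

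The barcodes kept out for Pdgfra spanned a gap in the fibroblast list. Of the 32, 17 had 5 to 47 UMIs of the fibroblast list, 16 of these with a single Pdgfra UMI, and a median depth of 7214 UMIs. The other 15 had 164 to 1224 list UMIs and a median depth of 13455, and all 15 were among the top doublet scores. Of the 43 barcodes kept out by any of the 3 genes, 21 had top doublet scores, against 4 of the 297 kept. The rule on Pdgfra thus removed both barcodes with a fibroblast-sized amount of matrix transcripts and barcodes within the range of the cells kept.

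**Figure D5:**
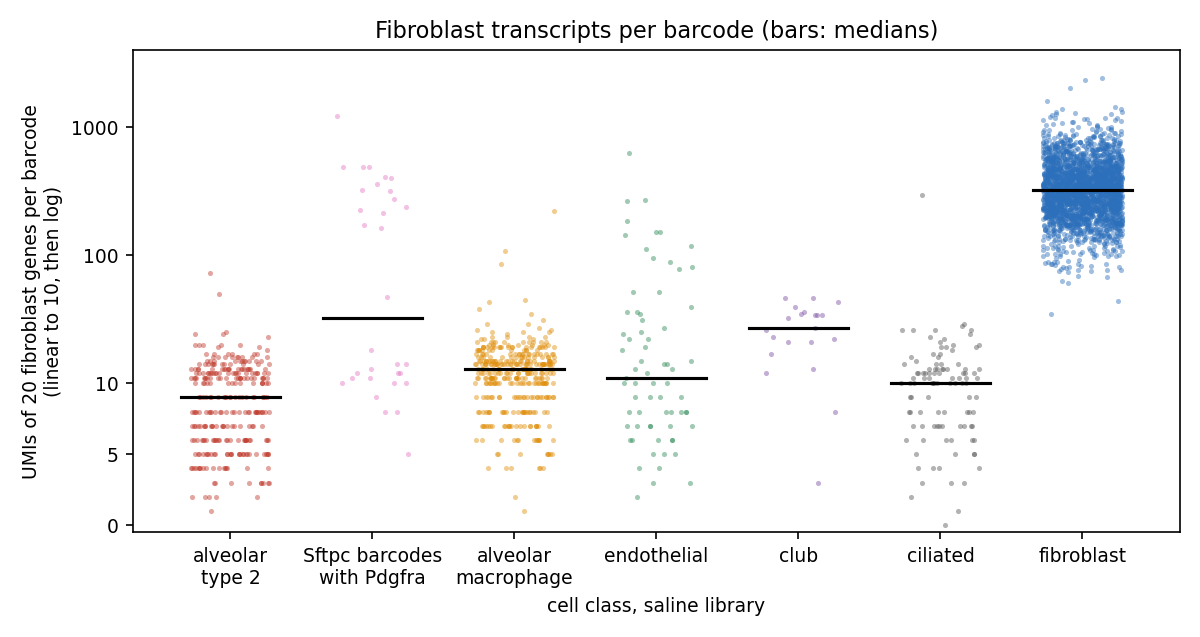
UMIs of the 20 fibroblast genes in each barcode (linear to 10, then log; bars are medians) for the 297 alveolar type 2 cells, the 32 barcodes kept out for a Pdgfra UMI, and the other lineages of the saline library. Alveolar type 2 cells overlap macrophages and ciliated cells, and the barcodes with Pdgfra lie at 5 to 47 or at 164 to 1224.

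Traces of the other lineages were smaller as a share of their source. Macrophage genes had 1.38 UMIs per alveolar type 2 cell, with 96 in 1 cell, and 0.608% of the macrophage level in UPM. Endothelial genes had 0.677 per cell (1.01%), ciliated genes 2.16 with 145 in 1 cell (1.54%), and club genes 37.3 (1.13%), against 33.1 per fibroblast. Of the club list, 948 UMIs lay in 1 alveolar type 2 cell, and the medians were 28 per alveolar type 2 cell and 30 per fibroblast. The endothelial trace was mainly Esam, an adhesion molecule, with 139 of 201 UMIs and 77.6 UPM against at most 1.61 outside endothelial cells. The genes of red cells had no UMI.

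Alveolar type 2 RNA was in turn found in nearly every other barcode of the saline library. Outside the 341 barcodes past the Sftpc limit, Sftpc had a UMI in 95.4% of cells, with a median of 4. Fibroblasts had 4.24 Sftpc UMIs per cell, macrophages 4.59, endothelial cells 3.84, ciliated cells 4.16 and club cells 15.3. Of the 15 leading genes with at least 500 UMIs, chosen after their values were seen, 13 had an alveolar type 2 to fibroblast ratio between 307 and 525, across levels from 314 to 205522 UPM. The other 2 were Etv5 at 47.2 and Scd1 at 92.4. The set holds the rule genes Sftpc, Cxcl15, Slc34a2 and Lamp3. Over all 15 genes the ratios ran from 47.2 to 525 for fibroblasts, 62.1 to 696 for macrophages and 51.7 to 570 for ciliated cells. Where a UMI was found, they ran from 50.9 to 969 for endothelial cells and 4.10 to 259 for club cells. Ratios over 300 were found for 13 genes against fibroblasts, 5 against macrophages, 9 against endothelial, 4 against ciliated and 0 against club cells. In the bleomycin library, where 1 barcode passed the rule (0.0224% [0.000567 to 0.125] of 4468), the gated fibroblasts had 0.252 Sftpc UMIs per cell, macrophages 0.0649 and endothelial cells 0.0268, at median depths of 13931, 6772 and 7939 UMIs. The members held 81.0% of the Sftpc UMIs of the saline library and the barcodes kept out 11.8%.

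That 1 bleomycin barcode had 20082 UMIs and 1163 Sftpc UMIs per 10000, within the saline range. Its Sftpa1 was 13.9 per 10000, below the lowest saline cell at 60.9, its Ager was 102, above the highest at 51.6, and its Lcn2 was 44.8, above the highest at 34.7. It held 55 UMIs of the fibroblast list. A single barcode shows nothing about the treatment, and fewer such cells and less recovery of them cannot be told apart.

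Lepr, the gene that drives the reporter, was nearly absent. It had 3 UMIs in 3 of 297 cells (1.01% [0.209 to 2.92]), or 1.68 UPM against 39.2 in fibroblasts, 84.5 in macrophages and 45.6 in endothelial cells. In 1 draw of 2000 UMIs per cell no alveolar type 2 cell had a Lepr UMI, which allows a share of up to 1.01% by 3 counts and 1.23% by the exact interval, and in a draw of 1000 UMIs 1 cell had one (0.337%). At 2000 UMIs per cell the shares were 7.70% [6.70 to 8.80] in fibroblasts, 15.9% [12.4 to 19.9] in macrophages and 13.0% [6.14 to 23.3] in endothelial cells. No ciliated or club cell had a Lepr UMI in that draw, which allows up to 3.45% of 105 ciliated and 16.1% of 21 club cells. Before thinning 1 club cell had 1 Lepr UMI. The club limit lies above the fibroblast share. Median depths before thinning were 5983 UMIs in alveolar type 2 cells, 7217 in fibroblasts, 4164 in macrophages and 5381 in endothelial cells. The barcodes kept out held 9 Lepr UMIs in 7 of 43, and all 9 lay in those with a Pdgfra UMI. Of the 8 genes of leptin signalling, 3 of 7 measured were lower than in fibroblasts and none higher. Of all measured genes 33.8% were lower than in fibroblasts and 10.1% higher. The list median was a log2 ratio of -0.79 against -0.60 for all genes, so this count says little about the list. Against macrophages 1 was higher and 4 lower of 6 (2 lower after centring), against endothelial cells 1 and 2 of 5, against club cells 2 and 1 of 5 and against ciliated cells 0 and 1 of 5. Socs3, a leptin-induced inhibitor of cytokine signalling, stood at 149 UPM against 491 in fibroblasts. Present Lepr transcript does not report past activity of the Cre driver, and how these cells came to pass the sort was not tested.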

How the data were processed

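The authors deposited raw UMI counts per gene and barcode for 28692 genes, made with Cell Ranger 2.1.1 on mm10 per the submitters' processing notes. The gene annotation and cell calling were not stated in the labels used here. The members and gene lists were chosen with earlier results of these data known.

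Saline gates, with Sftpc under 300 per 10000 UMIs, were: fibroblast, 2 Pdgfra UMIs; macrophage, 5 Chil3 and 1 Ptprc; endothelial, 2 Cdh5; club, 100 Scgb1a1 per 10000 and 3 Cyp2f2; ciliated, 5 of Foxj1, Ccdc153 and Tmem212. The first 3 had no UMI of each other's marker or of Epcam, and the airway gates none of Ptprc, Pdgfra or Cdh5. The 8 barcodes in more than 1 gate were left out. Genes of a gate are no finding about it.

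UMIs were summed per class, with 1 UPM added for log2 ratios and the size rule. Folds quoted have no such addition. Intervals are exact Poisson (levels), conditional binomial (ratios) or Clopper-Pearson (shares). Every cell of the 6 classes had the 2000 UMIs used for thinning. Doublets were scored with Scrublet (scanpy 1.11.5), whose automatic threshold marked only 8 saline barcodes, so the top 237, at 0.8% per 1000 barcodes, were counted as top scores. They stayed in, and leaving them out is an alternative. Genes the text could name, not all of which it does, were the rule's genes, the 10 highest levels, the 15 largest lowest ratios, the 8 highest and lowest against fibroblast, club and ciliated cells, the 6 most variable genes, members of the 22 lists and Lepr. The scripts were tested on data with known answers.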

Additional observations from a re-analysis of the deposited data

How the results depend on the processing

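The count of cells moved between 201 (mitochondrial limit of 5%) and 322 (1 UMI of the exclusion genes allowed), and it and the bleomycin barcode stayed within 1.5 times of the reported count in all 7 alternatives each. Sftpc, at 205522 UPM, was 203653 and 207757 with limits of 150 and 600, 202596 with 1 exclusion UMI, 204206 with the 5% limit and 275454 without surfactant genes in the total. The fibroblast trace, at 3.46%, was 3.88% with the limit of 150, 4.30% with 1 exclusion UMI, 3.32% with the 5% limit, 3.33% without top doublet scores, 4.64% without surfactant genes in the total, 3.79% with cells thinned and 3.60% for collagens and Dcn alone. Genes apart, in the order fibroblast, macrophage, endothelial, club and ciliated, were 2562, 2408, 1349, 1323 and 1677. A minimum of 20 UMIs in place of 50 UMIs and 20 UPM gave 4930, 3776, 2869, 2593 and 3368. Thinned cells, with fewer UMIs, gave 1283, 466, 474 and 602 for the last 4. Against fibroblasts they gave 2343, a total within the limit, but its make-up changed. Thinned, 252 genes were higher and 2091 lower, in place of 589 and 1973. Club cells gave 2109 without surfactant genes in the total and 534 after centring, an alternative chosen after seeing the data, as was the trace without its top cell. The cause of the other changes was not tested. The remaining alternatives, 85 of 108, left each result within its limit, including Lepr. Depth limits genes under 50 UMIs, and the gates of 21 club and 69 endothelial cells are small. No paired analysis was possible because each group is 1 library.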
